A study of Apostichopus japonicus with 12 samples.

Results

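Broad domains of acetylated histone H3 lysine 9 (H3K9ac) were described in gut tissue from Apostichopus japonicus, a sea cucumber, after heat stress and in untreated controls. A domain was a stretch at least 2500 bp wide, made by pooling the H3K9ac peaks of 6 immunoprecipitated libraries and joining peaks that overlapped by 1 bp or more. This gave 204 domains among 24534 joined regions, 0.831% of the regions and 5.46% of the bases they span. The domains were chosen by the peak positions of all 6 libraries, so their width is given as a description, with no test. The heat group (3 libraries) came from animals whose water was warmed from 18 °C to 26 °C at 2 °C per hour and then held at 26 °C for 48 h. The control group (3 libraries) was untreated, was sampled at the same time, and has no temperature stated in the labels. No genotype, strain, age or sex is given for either group, and the tissue was whole intestine, so a domain cannot be assigned to a cell type. The labels do not say that the libraries of a group came from separate animals, so a p-value measures only the spread between these libraries, which may be technical.

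Histone acetylation at this residue is laid down by acetyltransferases and removed by deacetylases, and it marks active promoters and nearby enhancers. At most active promoters the mark covers the few nucleosomes around the transcription start, whereas in mammals some genes carry wide stretches of promoter marks that extend into the gene body. The sea cucumber intestine is an organ known for regrowth after evisceration and for shrinking during summer dormancy. No annotation or genome of the files' assembly was used here, so genes, promoters and sequences of the domains were not analysed.

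The lists differed greatly in length, and both libraries numbered 3 stood apart from the others. Heat replicates 1, 2 and 3 had 1180, 929 and 17932 peaks, and control replicates 1, 2 and 3 had 5614, 1828 and 16518. The genome background, the mean number of input-scaled fragments over a position, was 1.39, 1.203 and 1.83 in the heat libraries and 0.730, 0.758 and 1.69 in the controls. Heat replicate 3 and control replicate 3 thus formed the longest lists, and every comparison between groups is given below with and without both. Leaving out both kept the domains and regions outlined with all lists, and only dropped these libraries from the comparison. Where a single library was left out, the domains were built again from the remaining lists.

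The domains ran from 2506 to 6255 bp, with a median of 3019 bp and quartiles of 2718 and 3625.5 bp, whereas the median of all joined regions was 321 bp. Of the 204 domains, 105 were at least 3000 bp wide, 36 at least 4000 bp and 9 at least 5000 bp. In 163 of them a single peak of 1 library already reached 2500 bp, and 41 passed that width only by the joining of peaks. In 61 domains 1 peak spanned the whole width, a heat replicate 3 peak in 48 and a control replicate 3 peak in 13. The widest single peak of a domain was in heat replicate 3 in 153 domains and in control replicate 3 in 51. The outline of the domains therefore rests on these 2 libraries.

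Close to the threshold the regions formed a continuum. Just inside lay MRZV01000005.1 at 1007221–1009726 and MRZV01000201.1 at 459885–462390, both 2506 bp wide, and MRZV01000399.1 at 105279–107790, which was 2512 bp wide. Just outside lay regions of 2477, 2472 and 2461 bp on MRZV01000854.1, MRZV01000214.1 and MRZV01000330.1. The 3 inside had peaks in 5 libraries each, and those outside in 2, 5 and 5.

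Most domains had peaks of both heat and control libraries. This follows largely from heat replicate 3 and control replicate 3, which set most outlines and had peaks in 204 and 202 domains. Peaks of all 6 libraries lay in 62 domains (30.4%), of 5 libraries in 45, of 4 in 41, of 3 in 49, of 2 in 5 and of 1 library in 2. All 6 had peaks in 10.4% of the 222 regions from 2000 bp to the domain threshold and in 0.0238% of the 16820 regions under 500 bp. The most frequent incomplete combination was heat replicate 3 with control replicates 1 and 3, in 43 domains. Every domain had a heat replicate 3 peak, the 3 heat libraries all had one in 76 domains and the 3 controls all had one in 117. The pair of domains called in a single library were both called in heat replicate 3, and no domain was called in the controls alone. Wider domains were called in more libraries. All 6 libraries had a peak in 20 of 36 domains of 4000 bp or more, in 23 of 69 between 3000 and 3999 bp, and in 19 of 99 under 3000 bp. A longer target meets a peak more easily, and its part in this rise was not tested.

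Within the libraries the number of domains with a peak followed the length of the list. It was 112, 90 and 204 in heat replicates 1, 2 and 3, or 54.9%, 44.1% and 100% of all domains, and 190, 122 and 202 in control replicates 1, 2 and 3, or 93.1%, 59.8% and 99.0%. Wilson 95% intervals were 48.0–61.6%, 37.5–51.0% and 98.2–100% with heat and 88.8–95.9%, 53.0–66.3% and 96.5–99.7% in the controls, and they cover counting error only. The groups overlapped, with heat replicates 1 and 2 lowest and heat replicate 3 highest of all. On the log2 scale heat minus control was −0.40, equal to a geometric mean 0.760 times that of the controls, where the SDs were 0.61 with heat and 0.40 in controls (two-sided exact permutation test over 3 libraries against 3, p = 0.4). With 3 libraries against 3 this test cannot go below 0.1. Without both libraries numbered 3 the difference was −0.60 (exact permutation p = 0.333, the smallest that 2 against 2 allows). Over all 24534 joined regions a peak was present in 4.32%, 3.40% and 70.7% in heat replicates 1, 2 and 3 and in 20.4%, 6.88% and 63.3% in control replicates 1, 2 and 3. There heat minus control was −1.03 on the log2 scale (exact permutation p = 0.6), and −1.63 without both libraries numbered 3 (exact permutation p = 0.333). The domains' difference was the smaller one, but the domain counts lay near a ceiling in heat replicate 3 and control replicates 1 and 3 (100%, 93.1% and 99.0%). A ceiling keeps such a difference small, so the domains cannot be said to differ less between groups than other regions.

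How much of each domain the peaks covered differed far more between libraries of 1 group than between the groups. Averaged over all 204 domains, with 0 where there was no peak, peaks covered 10.1%, 7.75% and 92.0% of the domain in heat replicates 1, 2 and 3. In control replicates 1, 2 and 3 they covered 34.4%, 10.9% and 79.4%. The group means were 36.6 ± 47.9% with heat and 41.5 ± 34.8% in controls (SD, n = 3 each), a difference of −4.93 percentage points that was much smaller than the spread (two-sided exact permutation test, p = 0.8). Without both libraries numbered 3 it was −13.7 points (exact permutation p = 0.333). It was positive without heat replicate 1 (8.32), heat replicate 2 (9.58) or control replicate 3 (14.5). Heat replicates 1 and 2 and control replicate 2, the shortest lists, stood close together at 7.75% to 10.9%. The cover of both libraries numbered 3 is high in part by choice, since their wide peaks set the outline of most domains.

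**Figure D1:**
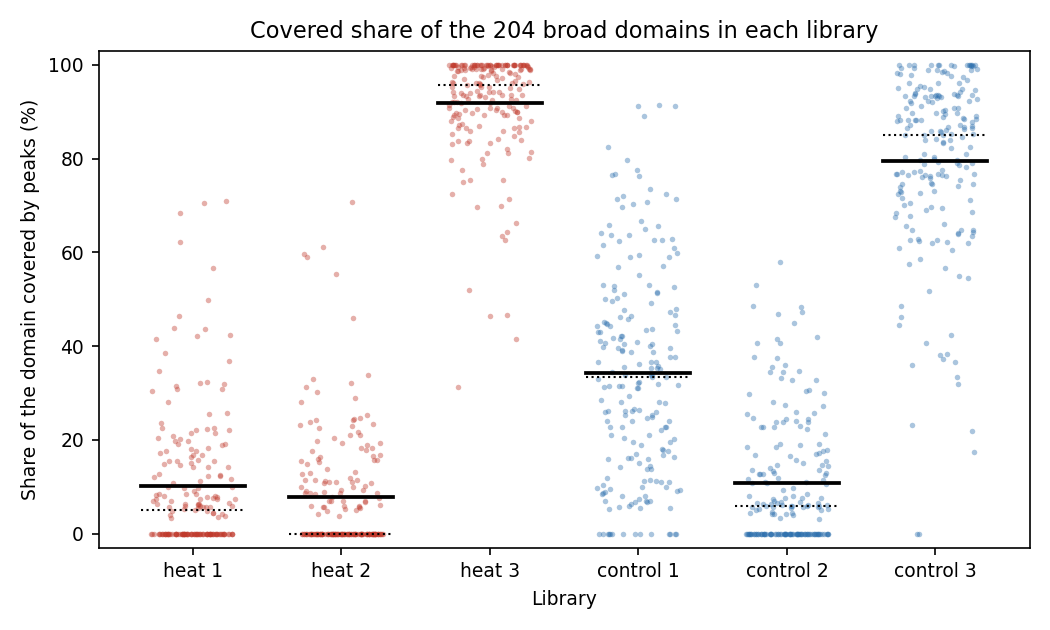
Share of each of the 204 broad domains covered by H3K9ac peaks, in percent, for heat replicates 1 to 3 (red) and control replicates 1 to 3 (blue). Each point is a domain, solid lines are means and dotted lines medians; heat 3 and control 3 sit at means of 92.0% and 79.4%, and the other libraries at 7.75% to 34.4%.

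Almost complete cover was found in the longest lists. Heat replicate 3 covered at least 90% of 146 domains and control replicate 3 of 70, while control replicate 1 did so in 3 domains and the 3 shortest lists in 0. Under 10% was covered in 136 and 144 domains of heat replicates 1 and 2, in 0 of heat replicate 3, and in 36, 125 and 2 domains of control replicates 1, 2 and 3. Where a library had a peak at all, the median length covered was 427.5, 454 and 2821.5 bp in heat replicates 1, 2 and 3 and 1114.5, 470.5 and 2549 bp in control replicates 1, 2 and 3.

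Set against each library's own covered length, the domains weighed most in the short lists. They held 22.4%, 22.1% and 6.74% of the bases covered by peaks in heat replicates 1, 2 and 3, and 12.1%, 14.9% and 7.09% in control replicates 1, 2 and 3. The heat mean of 17.1 ± 8.95% stood 5.71 percentage points above the control mean of 11.4 ± 3.96% (SD, n = 3 each), a difference within the spread (two-sided exact permutation test, p = 0.4). Without both libraries numbered 3, heat replicates 1 and 2 lay above control replicates 1 and 2, with a difference of 8.74 points (exact permutation p = 0.333). Using only the top 929 peaks by q of every library, it was 2.62 points (exact permutation p = 0.6).

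A domain can be called whole, as a single peak that fills it, or as a single small peak, and the libraries differed in which of these they showed. A single peak held 61.6%, 56.7% and 75.0% of the called domains in heat replicates 1, 2 and 3 (Wilson 95% intervals 52.4–70.1%, 46.4–66.4% and 68.6–80.4%). In control replicates 1, 2 and 3 it held 37.9%, 61.5% and 38.1% (31.3–45.0%, 52.6–69.6% and 31.7–45.0%). These intervals cover counting error only and take no account of how the domains were chosen. In heat replicate 3 the widest peak took a median of 95.3% of the domain, so most of its single peaks were whole domains. In heat replicates 1 and 2 it took 9.94% and 10.7%, so their single peaks were short stretches. In control replicates 1, 2 and 3 it took 23.0%, 11.0% and 68.7%.

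The share held in 1 peak averaged 64.4 ± 9.49% with heat and 45.8 ± 13.6% in controls (SD, n = 3 each), a difference of 18.6 percentage points (two-sided exact permutation test, p = 0.2). Control replicate 2, at 61.5%, lay above heat replicate 2 and just below heat replicate 1, so the groups overlapped. Wide peaks of the libraries numbered 3, most often of heat replicate 3, set the outline of most domains. Their shares in 1 peak and in the widest peak are therefore high in part by choice, and the group means include this. The difference was −5.68 points without heat replicate 3, in the 81 domains then built, and −15.5 points using only the top 929 peaks by q of every library. Without both libraries numbered 3, but with the same 204 domains, it was 9.45 points (exact permutation p = 0.667). In the 7 domains built from the other 4 libraries, with all libraries compared, it was −5.32 points. The median share in the widest peak differed by 4.41 points, from group means of 38.7 ± 49.0% with heat and 34.2 ± 30.4% in controls (exact permutation p = 1), and without both libraries numbered 3 by −6.67 points (exact permutation p = 0.333).

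**Figure D2:**
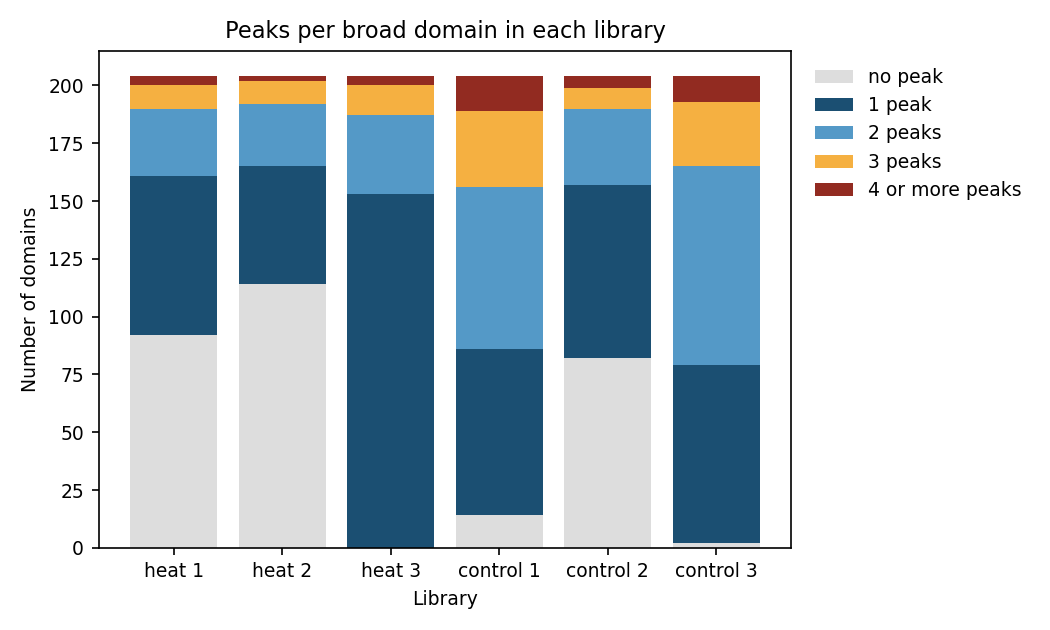
Number of the 204 domains that held no peak, 1, 2, 3, or 4 or more peaks in each heat and control library, as stacked bars. Heat 3 held 153 domains in 1 peak, whereas control 3 held 77 in 1 peak and 86 in 2.

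Breaks into many peaks were most frequent in control replicates 1 and 3. At least 2 peaks were present in 43, 39 and 51 domains of heat replicates 1, 2 and 3 and in 118, 47 and 125 domains of control replicates 1, 2 and 3. The mean number of peaks per called domain was 1.59, 1.59 and 1.35 in heat replicates 1, 2 and 3 and 1.98, 1.55 and 1.87 in control replicates 1, 2 and 3. The breaks were short in the long lists. Neighbouring peaks of a domain lay a median of 370, 405 and 217.5 bp apart in heat replicates 1, 2 and 3 and 312.5, 480 and 231 bp in the controls. The smallest gap was 151 to 154 bp in every library, just above the read length of 150 bases. The pieces are those of the authors' peak caller, and its part in this floor was not tested.

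The libraries numbered 3 can be set side by side only as a description, since their own wide peaks set the outline of most domains, and those of heat replicate 3 more often than those of control replicate 3. Both had a peak in 202 domains. Of these, 55 were a single peak in both, 96 were a single peak in heat replicate 3 and broken in control replicate 3, 22 were the opposite and 29 were broken in both. Heat replicate 3 covered more bases in 143 of the 202 and control replicate 3 in 59, with a median difference of 407.5 bp. Over all domain bases, 72.3% were covered by both, 19.7% by heat replicate 3 alone, 7.65% by control replicate 3 alone and 0.281% by neither. The order turned with the lists that set the outline, in a comparison added after the data were seen. In the 149 domains built without control replicate 3, heat replicate 3 covered more bases in 137 and control replicate 3 in 6. In the 81 domains built without heat replicate 3, heat replicate 3 covered more in 18 and control replicate 3 in 54. In the 7 domains built without both, heat replicate 3 covered more in 4 and control replicate 3 in 2. Of these 149, 81 and 7 domains, heat replicate 3 held 142, 57 and 6 in 1 peak and control replicate 3 held 48, 70 and 3. These values compare 1 library with 1 library, so they have no replicate check. Heat replicate 3 also had the higher genome background (1.83 against 1.69 fragments) and median fragments at a summit (21.7 against 18), and their part was not tested.

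**Figure D3:**
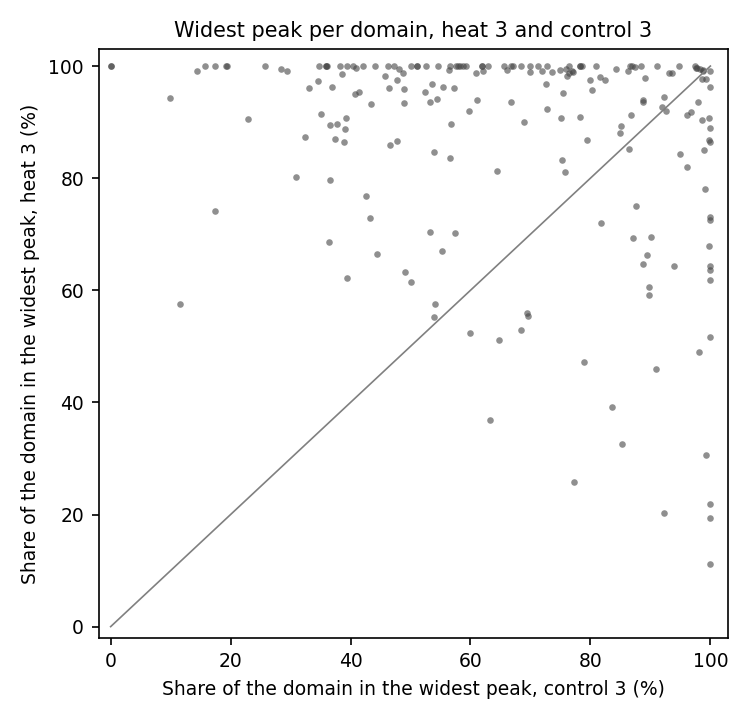
Share of each domain's width taken by its widest peak, in percent, in heat replicate 3 (vertical axis) and control replicate 3 (horizontal axis); each point is 1 of the 204 domains and the line marks equal shares. Heat 3 had the larger share in 153 domains and control 3 in 51. Their own wide peaks set the outline of most domains, so this split is only a description.

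In 0 of 204 domains did all 3 heat libraries cover fewer bases than every control, and in 0 did all 3 cover more. The unequal lists nearly fixed these counts, so they are no result about the domains. Heat replicate 3 covered at least 31.2% of every domain, whereas control replicate 2 covered a mean of 10.9%. In the other direction, heat replicate 2 covered a mean of 7.75% and control replicate 3 of 79.4%. Among all 24534 joined regions 0.0856% had heat below every control and 0.0245% heat above, and among the 4436 regions with a peak in at least 3 libraries these shares were 0.473% and 0.135%. Without both libraries numbered 3, heat replicates 1 and 2 lay below both controls in 73 domains (35.8%) and above both in 4 (1.96%), against 13.4% and 0.915% of the 6230 regions with a peak in those 4 libraries. Regions without a peak in a control cannot count as heat below both. Among regions with a peak in both control replicates 1 and 2, heat was below both in 73 of 117 domains (62.4%) and in 79.2% of all such regions. These regions were chosen by their peaks in the controls, the group then counted as higher, so these shares are high in part by choice. No such count was made for regions with a peak in both heat replicates 1 and 2.

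Domains found in some libraries also carried more peak bases in a library that had no part in finding them. Each library was set aside in turn and regions were built from the other 5 lists. Its peaks then covered 11.0%, 8.38% and 89.5% of the domains' bases in heat replicates 1, 2 and 3, against 1.93%, 1.52% and 61.0% of the bases of narrower regions. In control replicates 1, 2 and 3 they covered 35.3%, 11.3% and 77.6% of the domains' bases, against 13.3%, 3.38% and 49.7% of those of narrower regions. Cover was higher in domains in 6 of 6 libraries, with a mean difference of 17.0 ± 10.2 percentage points (SD, n = 6; two-sided exact sign-flip permutation test, p = 0.0312, the smallest that 6 libraries allow). The 6 differences share their region lists, so they are not fully independent and the p-value is not that of 6 separate checks. Narrower regions were often called in 1 library only, as in 77.9% of those under 500 bp, so a higher cover in domains was likely from the outset. Against narrower regions of at least 1000 bp, a comparison added after the data were seen, the mean difference was 8.91 points with the same exact permutation p of 0.0312. Among regions with a peak in at least 2 other lists, also added afterwards, it was 9.38 points.

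Of the domains built without heat replicate 3, 81 reached 2500 bp and heat replicate 3 had a peak in all 81. Of 149 built without control replicate 3, it had a peak in 147. The matching counts of narrower regions are not given here, and a longer target meets a peak more easily. Leaving out any of the other 4 libraries left 202 to 204 domains. Only 7 domains arose from the 4 shorter lists alone, and heat replicate 3 covered 92.0% of their bases and control replicate 3 covered 91.8%. Of the bases of the 7066 narrower regions from those lists, heat replicate 3 covered 79.6% and control replicate 3 covered 74.3%.

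Inside the domains the cover of every library was higher in the middle than at the ends. Domains were cut into 10 equal parts from start to end. The middle pair of parts was covered to 13.1%, 8.82% and 96.7% in heat replicates 1, 2 and 3, and the outermost pair to 3.51%, 2.54% and 80.2%. In control replicates 1, 2 and 3 the middle was covered to 40.5%, 12.8% and 84.5% and the outermost parts to 17.6%, 3.60% and 63.8%. The cover of the middle was 3.73, 3.48 and 1.21 times that of the ends in the heat libraries and 2.30, 3.55 and 1.33 times in the controls. Since the ends of a domain are set by the library that reaches farthest, some decline at the ends is built in. The summits of highest fold lay at least 25% of the width from both ends in 60.7%, 61.1% and 56.4% of the called domains of heat replicates 1, 2 and 3. In control replicates 1, 2 and 3 this held for 53.2%, 51.6% and 49.5%. Summits spread evenly over the width would give 50%, but a summit lies inside a peak, so 50% is only a rough reference. The difference between the groups was not tested.

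**Figure D4:**
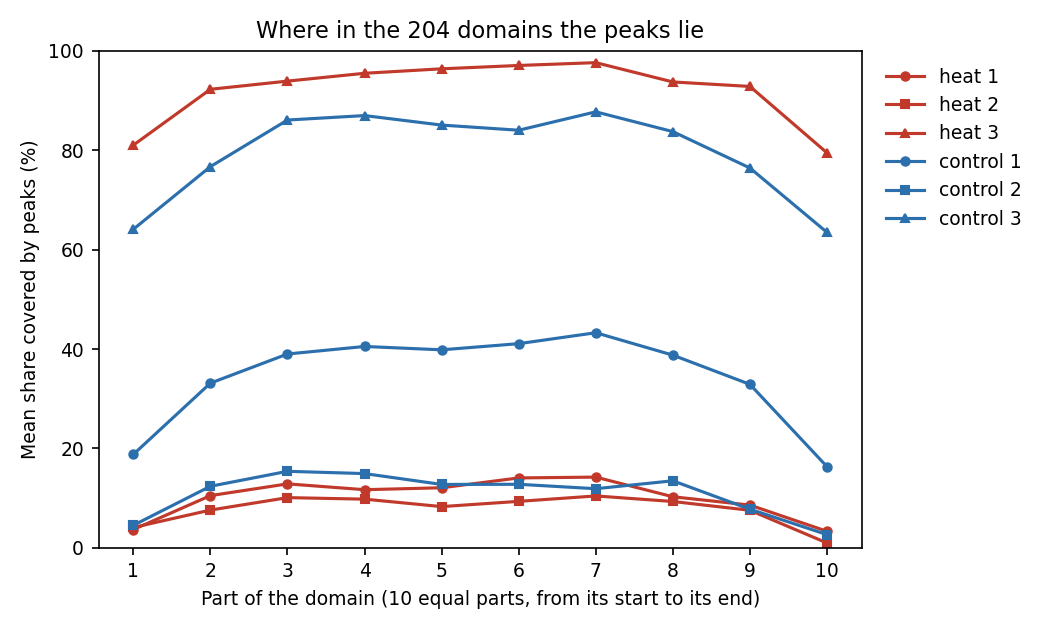
Mean share covered by H3K9ac peaks, in percent, in 10 equal parts of the 204 domains from start to end, for the 3 heat (red) and 3 control (blue) libraries. Cover of the middle pair of parts exceeded that of the outermost pair in each library, as in heat 1 (13.1% against 3.51%) and control 1 (40.5% against 17.6%).

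The short lists also placed their peaks at related positions. Heat replicates 1 and 2 both had peaks in 76 domains, and in 64 of these (84.2%) their peaks shared at least 1 base. The share was 80.9% of 89 domains for heat replicate 1 with control replicate 2 and 86.6% of 67 for heat replicate 2 with control replicate 2. In sharing a base, the pair within the heat group was therefore in the range of these pairs between groups. The summits of highest fold lay a median of 260.5 bp apart between heat replicates 1 and 2, 228 bp between heat replicate 3 and control replicate 3, and up to 477 bp (heat replicate 2 and control replicate 1) over the 15 pairs of libraries. They were within 200 bp of each other in 91 of 202 domains for the libraries numbered 3 (45.0%) and in 35 of 76 for heat replicates 1 and 2 (46.1%). For heat replicates 1 and 2 this share was 34.8% and 34.3% with control replicate 2, and 33.3% and 27.3% with control replicate 1. Control replicates 1 and 2 stood at 32.5%, with a median distance of 373 bp. By summits the heat pair was thus closer than these pairs, which was not tested.

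A core under peaks of every library was present in many of the fully shared domains. Of the 62 domains with peaks in all 6 libraries, 47 had bases covered in all 6, over a median of 265 bp (range 10 to 1081 bp). Over all domains, 23.5% of the bases were covered in 1 library, 38.4% in 2, 23.7% in 3, 7.47% in 4, 4.48% in 5 and 2.42% in all 6.

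Where a domain was broken, neighbouring summits of the same library lay about 1 kb apart. The median spacing was 894.5, 872 and 1239 bp in heat replicates 1, 2 and 3, over 66, 53 and 72 spacings, and 956, 910 and 1212 bp in control replicates 1, 2 and 3, over 186, 67 and 175. The quartiles ran from 580.75 to 1338 bp in heat replicate 1 and from 727.5 to 1932 bp in control replicate 3, and no spacing was under 319 bp. The means were 1002 ± 205.7 bp with heat and 1026 ± 163 bp in controls (SD, n = 3 each), a heat minus control value of −24.2 bp (exact permutation test, two-sided, p = 0.7). Both libraries numbered 3 had the widest spacing of their group, and without them the difference was −49.8 bp (exact permutation p = 0.333). It was positive without heat replicate 1 (29.5 bp), heat replicate 2 (55.1 bp) or control replicate 3 (96.2 bp).

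Peaks inside domains were not taller than others in every library, and since width and height are not independent in called peaks no test was made. The median fold of all peaks was 4.45, 4.37 and 6.92 inside the domains and 4.21, 4.37 and 4.94 outside them in heat replicates 1, 2 and 3. In control replicates 1, 2 and 3 it was 5.25, 4.92 and 5.86 inside and 5.13, 5.04 and 4.41 outside. The wide gaps were in the libraries numbered 3, and in control replicate 2 the peaks inside were the lower ones. The fold is the authors' ratio of fragments over local background at the summit. At the highest peak of each domain its median was 4.72, 4.59 and 8.30 in heat replicates 1, 2 and 3. It was 6.11, 5.46 and 7.51 in control replicates 1, 2 and 3. Within each list these peaks stood at median percentiles of 66.2, 58.3 and 89.3 with heat and 72.1, 61.9 and 90.0 in the controls. They rested on medians of 17, 16 and 46.4 fragments in the heat libraries and 17, 14 and 37 in the controls. The local background there was 2.11, 2.19 and 2.53 times the genome background with heat and 2.44, 2.27 and 2.26 times in the controls, and in no library did it exceed 10 times at the highest peak of any domain.

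The widest domain lay on MRZV01000106.1 at 681192–687446 and measured 6255 bp. Heat replicate 3 covered it with a single peak of 6198 bp, while heat replicates 1 and 2 had 5 and 3 peaks over 2304 and 1462 bp. Control replicate 3 had 2 peaks over 5836 bp, and control replicates 1 and 2 had 4 and 5 peaks over 2087 and 2152 bp. The short lists of both groups thus broke it into several pieces, and 574 bp were covered in all 6.

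The domain on MRZV01000997.1 at 15788–21876 (6089 bp) differed most between the libraries numbered 3 among the 8 widest. Heat replicate 3 filled all of it with 1 peak, whose summit lay 538 bp from the start. Heat replicates 1 and 2 covered 1147 and 784 bp. Control replicate 3 covered 3939 bp in 4 peaks, of which the last ended 4761 bp from the start, and control replicates 1 and 2 covered 2548 and 188 bp. The last part of the domain was therefore called in heat replicate 3 alone. The summits of highest fold lay at 2204, 554 and 538 bp in heat replicates 1, 2 and 3 and at 544, 540 and 771 bp in control replicates 1, 2 and 3, so that of heat replicate 1 stood apart.

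**Figure D5:**
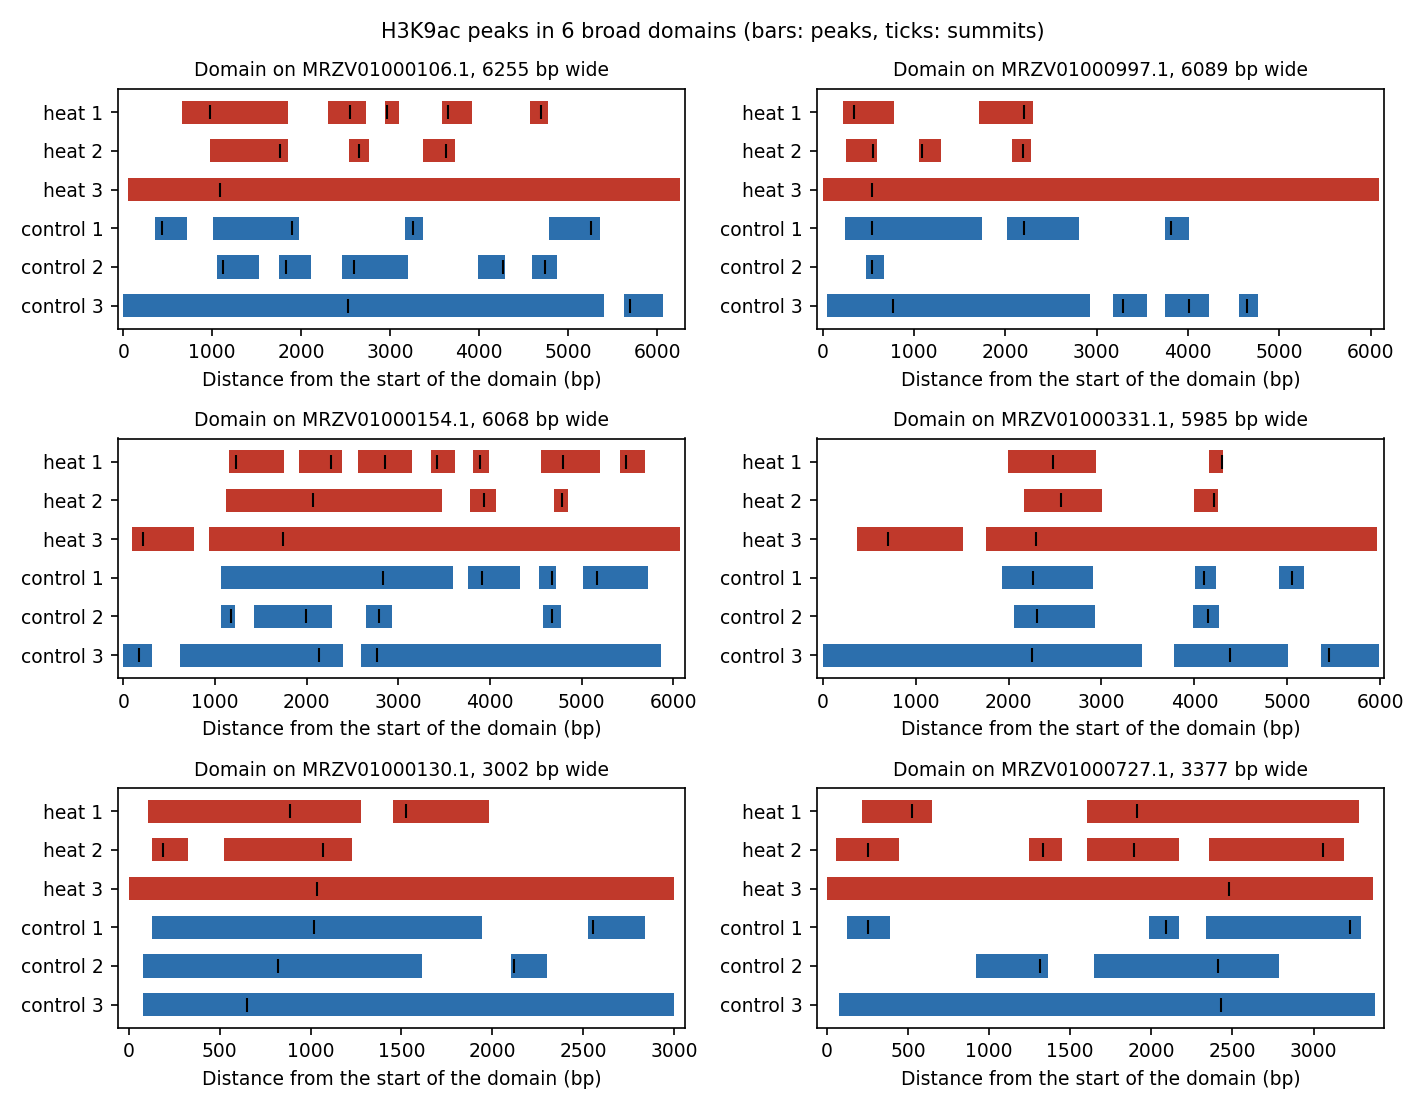
Peaks (bars) and summits (ticks) of the 3 heat (red) and 3 control (blue) libraries in 6 domains, against the distance from the start of the domain in bp: the 4 widest, and the 2 with the highest mean covered share. On MRZV01000331.1 the peaks of heat 1 and 2 and control 1 and 2 recur at nearby places inside the wide peaks of heat 3 and control 3.

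On MRZV01000154.1 at 237257–243324 (6068 bp) heat replicate 1 had 7 peaks, the most of any library in any domain. They covered 3022 bp, against 2790 bp in 3 peaks in heat replicate 2 and 5810 bp in 2 peaks in heat replicate 3. Control replicates 1, 2 and 3 covered 3997, 1499 and 5359 bp in 4, 4 and 3 peaks. No other domain had more bases covered in all 6 libraries than the 1081 bp found here.

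The domain on MRZV01000331.1 at 47886–53870 (5985 bp) showed the same inner layout in both groups. Heat replicates 1 and 2 each had a peak beginning 1999 and 2167 bp from the start and a second, weaker one beginning at 4156 and 4001 bp. Control replicates 1 and 2 had theirs at 1932 and 2062 bp and at 4004 and 3983 bp, and control replicate 1 had a further peak at 4913 bp. The highest folds were 6.84, 5.69 and 19.8 in heat replicates 1, 2 and 3 and 10.3, 6.76 and 19.9 in the controls. The summits of highest fold lay between 2257 and 2569 bp from the start in all 6 libraries.

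Of the other 4 of the 8 widest domains, a pair lacked peaks in heat replicates 1 and 2. MRZV01000925.1 at 315282–320827 (5546 bp) was covered over 4952 bp in heat replicate 3 and over 2497, 276 and 5532 bp in control replicates 1, 2 and 3, and control replicate 3 had it as a single peak. MRZV01000063.1 at 273443–278551 (5109 bp) was covered over 4642 bp in heat replicate 3 and over 3923, 278 and 4482 bp in the controls, with 5 peaks in control replicate 1. In both, the cover of control replicate 2 was a single peak of under 280 bp. MRZV01000864.1 at 81845–86950 (5106 bp) had 382, 0 and 4925 bp covered in heat replicates 1, 2 and 3 and 862, 350 and 4509 bp in the controls. MRZV01000688.1 at 227403–232898 (5496 bp) had 1213, 593 and 5084 bp with heat and 3133, 854 and 4201 bp in the controls.

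The 5 domains with the highest mean covered share over the 6 libraries were less wide. MRZV01000130.1 at 555708–558709 (3002 bp) had 56.6%, 30.3% and 99.9% covered in heat replicates 1, 2 and 3 and 70.9%, 57.9% and 97.5% in control replicates 1, 2 and 3. MRZV01000727.1 at 266088–269464 (3377 bp) had 62.3%, 59.0% and 99.6% with heat and 41.6%, 46.9% and 97.8% in the controls. Cover by the libraries numbered 3 was nearly complete in both. MRZV01000858.1 at 120742–123466 (2725 bp) had 41.5%, 61.1% and 92.0% with heat and 65.7%, 45.0% and 92.7% in the controls. MRZV01000071.1 at 550213–553120 (2908 bp) had 70.9%, 55.3% and 96.9% with heat and 42.2%, 48.5% and 68.5% in the controls. There control replicate 3 lay above heat replicate 2, so the groups overlapped.

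MRZV01000119.1 at 590836–595297 (4462 bp) was the domain of these 5 with the most bases covered in heat replicates 1 and 2. Heat replicate 1 had a single peak of 3145 bp there, the widest peak in its list, and heat replicate 2 covered 3160 bp in 3 peaks. Heat replicate 3 filled all 4462 bp. Control replicates 1, 2 and 3 covered 2654, 283 and 3752 bp. The highest folds were 4.71, 7.98 and 20.7 in heat replicates 1, 2 and 3 and 8.42, 3.33 and 12.8 in the controls. Control replicate 2 was low here, and control replicate 3 exceeded heat replicates 1 and 2 in covered bases.

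In 8 domains 1 library had 5 or more peaks, and by order of name a further pair of these is given. MRZV01000059.1 at 602501–606574 (4074 bp) had 2, 2 and 2 peaks in heat replicates 1, 2 and 3 and 5, 3 and 3 in control replicates 1, 2 and 3. MRZV01000062.1 at 200161–203401 (3241 bp) had 5, 3 and 1 peaks with heat and 3, 2 and 4 in the controls. The library with most pieces was a control in the first and a heat library in the second.

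The domains were spread thinly over the assembly. They lay on 178 of the 2176 scaffolds that had any peak (8.18%), 152 scaffolds with 1 domain and 26 with 2, the most on any scaffold. Scaffold lengths are not in the files, so the span to the last peak was used, 610.6 Mb in all, which gave 0.334 domains per Mb. Scaffolds with a domain had a median span of 535 kb and 27 regions, and those without had 161 kb and 6 regions, so longer scaffolds held more of both. Domains on the same scaffold lay a median of 112514 bp apart (953 to 752428 bp), and 3 of the 26 pairs lay under 10 kb apart.

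The first 3 scaffolds by name among those with a pair of domains showed how much cover could differ along 1 scaffold. On MRZV01000059.1 the domain at 629761–633283 (3523 bp) lay 23186 bp beyond that at 602501–606574, and neither lacked a peak in any library. Their covered shares were 19.9%, 13.1% and 96.1% in heat replicates 1, 2 and 3 and 62.7%, 40.6% and 69.1% in the controls for the second, and 11.6%, 7.88% and 92.0% with heat and 36.5%, 22.3% and 62.3% in the controls for the first. On MRZV01000007.1 the domain at 432527–435655 (3129 bp) had peaks in 3 libraries, and that at 1117925–1120586 (2662 bp) in 5. On MRZV01000018.1 the domains at 162488–165173 and 386679–389617 had peaks in 3 and 4 libraries, with none in heat replicates 1 and 2 in either. The closest pair of all lay 953 bp apart on MRZV01000199.1, at 216702–219376 and 220330–224010, and neither lacked a peak in any library.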

How the data were processed

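H3K9ac ChIP-seq of intestine was analysed from 6 deposited peak lists (3 heat, 3 control). Each list was called against its own input, as the peak names show, so the 6 inputs were used only in that way. Per the labels, chromatin was sheared to 200–500 bp and sequenced as paired ends of 150 bases. Tools in the submitters' processing notes are BWA, SAMtools (1.3.1) and, as peak caller, MACS2 (2.1.1.20160309). No genome build is stated in the sources used, and scaffold names are as in the files, with coordinates counted from 1. The deposited fold is the authors' ratio at the summit. The −log10 p and −log10 q in each deposited list are those of the authors' caller, and each list ends near a −log10 q of 1.30 to 1.33. The deposited score repeats the q and was not used. They served only to order or select peaks of the same list, apart from the thresholds applied alike to all lists and the depths below.

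Peaks were joined with pandas 2.3.3 and NumPy 2.4.6. Depth was recovered from fold and −log10 p under a Poisson model (SciPy 1.17.1), with whole fragments, scaled by 0.988 in heat replicate 3, found for 100% of peaks within 0.002 in −log10 p. The lowest background shared by at least 5 peaks was taken as a library's genome background. On simulated lists all 200 planted domains came back with exact width, pieces and covered bases. Absence of a listed peak does not show absence of the mark. The rule for the domains uses no group labels, so labels were permuted over libraries. Named domains are the 8 widest, the 5 of highest mean cover, the 5 with most peaks in 1 library, those on the first 3 scaffolds with most domains, those at the threshold, and up to 5 in each direction where the groups did not overlap (there were 0). The closest pair was named after its values were seen. The domains, measures and alternatives were chosen with earlier results of these data known.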

Additional observations from a re-analysis of the deposited data

How the results depend on the processing

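The settings varied were the width, the peak threshold (fold 3 or more, −log10 q 5 or more), joining within 500 bp, lists held to the 929 most significant peaks (equal lists), leaving out libraries, and domains from part of the libraries. The number of domains was 426 at 2000 bp, 105 at 3000 bp, 549 when joined within 500 bp, 105 with equal lists, and 81 (without heat replicate 3) to 204 with 1 library left out. With equal lists the heat minus control difference turned to 0.20 (log2) for domains with a peak, 3.87 points for covered share, −15.5 points for domains in 1 peak, −4.37 points for the widest peak and 210 bp for spacing. At a −log10 q of at least 5 the spacing difference was 52 bp. With 1 library left out the differences ranged from −0.62 to −0.14 for domains with a peak, −37.7 to 14.5 points for covered share, −5.68 to 26.4 for domains in 1 peak, −33.4 (without heat replicate 3) to 22.2 for the widest peak, −121.5 to 96.2 bp for spacing and 3.05 to 8.32 points for the share of covered bases in domains, which was positive in all 16 alternatives. With the 7 domains from the 4 shorter lists, domains in 1 peak gave −5.32 and the widest peak −6.30 points, and spacing gave −591.5 bp, the lowest of its 16 alternatives. At a width of 3000 bp spacing gave −138.5 bp. Without both libraries numbered 3 the widest peak gave −6.67 points. The cause of these turns was not tested. Exact permutation p-values of the group differences lay between 0.1 and 1.

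With 1 library left out, domains with heat below every control numbered 0 to 25 and above 0 to 4. The 25 were of 81 domains without heat replicate 3 (30.9%, against 4.34% of all regions), 6 were below of 204 without control replicate 2 (2.94%, against 2.05%), and the 4 above were of 149 without control replicate 3 (2.68%, against 0.244%). With equal lists 2 were below and 7 above of 105 (1.90% and 6.67%, against 0.81% and 0.748% of all regions). There were 73 and 4 of 204 without both libraries numbered 3. Most peaks of at least 2500 bp left without heat replicate 3 were those of control replicate 3 (70), and without control replicate 3 those of heat replicate 3 (141). Such domains were thus outlined mainly by the group then counted as higher. A region called in 1 library cannot count, and with the 6 lists pooled 77.9% of regions under 500 bp were such. The higher shares in domains are therefore no result about the domains. The held-out difference stayed positive, at 12.2 to 19.1 points with 1 library left out (p = 0.0625, the smallest exact permutation p of 5 libraries), 11.5 without both numbered 3 (exact permutation p = 0.125, the smallest of 4) and 9.10 when joined within 500 bp. A replicate block cannot move a difference in this balanced design, and with it the values were −0.40 for domains with a peak (exact permutation p = 0.5) and 18.6 points for domains in 1 peak (p = 0.5, exact permutation). Deviations of covered share correlated at −0.0653, −0.0416 and −0.0714 between same-numbered libraries and at −0.0534 to 0.0913 between other pairs of a heat and a control library. These values show no pairing by number, but they cannot exclude that same-numbered libraries were processed together. A peak missing from the short lists of heat replicates 1 and 2 and control replicate 2 says little about the mark there.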

Other observations

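Smaller H3K9ac regions often lay beside the domains. The nearest other region was a median of 472 bp away (quartiles 211.5 and 2722 bp), within 500 bp of 105 domains and within 2000 bp of 147 (72.1%). Joining regions within 500 bp gave 549 regions of at least 2500 bp in place of 204.

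The share of a region class with peaks in all 6 libraries grew with its width. It was 30.4% of the 204 domains, 10.4% of 222 regions from 2000 bp to the domain threshold, 5.10% of 588 regions between 1500 and 2000 bp and 2.25% of 1776 regions between 1000 and 1500 bp. The mean number of libraries with a peak was 4.51, 3.87, 3.38 and 2.89 in these classes. Wide regions meet a peak more easily and were made from all lists, so these values describe the regions and were not tested.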
